A study of Mus musculus with 10 samples.

Results

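Transcription factors known from resting, recirculating T cells were followed in regulatory T cells (Treg) that had lost TFAM, the protein that packages mitochondrial DNA. The set was 10 named genes (Tcf7, Lef1, Bach2, Satb1, Foxo1, Foxo3, Foxp1, Ets1, Id3 and Klf3), found by symbol among the 22553 Ensembl genes of the deposited count table. All 10 passed the filter on low counts, which left 11990 genes. The control mice were Tfamfl/+Foxp3Yfp-Cre/+ and the knockout (KO) mice Tfamfl/flFoxp3Yfp-Cre/+, all of them female C57BL/6 littermates whose age is not given in the sources used here. Both groups therefore carried the Foxp3 Yfp-Cre allele and at least 1 floxed Tfam allele, so 1 copy is lost from control cells as well wherever Cre is active. Foxp3 lies on the X chromosome, so in these heterozygous females Treg that silence the chromosome with Cre keep Tfam, and the mice still hold Tfam-sufficient Treg. Only sorted cells positive for YFP, taken from lymph nodes and spleen and pooled from 2 to 3 mice per library, were sequenced, in 3 control and 3 KO poly(A) RNA libraries. Whether pools were prepared separately is not stated, so p-values measure the spread between these libraries, which may be partly technical.

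Resting T cells are held in a quiescent, recirculating state by a group of transcription factors rather than by the mere absence of stimulation. TCF-1 (gene Tcf7) and LEF1 are paired HMG-box proteins that bind the same DNA sequence and keep naive and memory programmes open, and BACH2 is a repressor that competes with AP-1 proteins at effector genes. FOXO proteins act in the nucleus until AKT kinase, downstream of PI3K, phosphorylates them and drives them into the cytoplasm, and their targets include homing receptors of lymphoid organs. In Treg, high levels of these factors are known from central, lymphoid cells and low levels from effector and tissue Treg.

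No factor was called different between KO and control by edgeR without the replicate number, while DESeq2 narrowly called Satb1 higher. All 10 had fitted values above 0, between 1.00-fold for Foxo1 and 1.27-fold for Bach2, although Foxo1, Foxo3, Ets1 and Id3 were below 0 with some libraries left out. Bach2 and Satb1 stood highest, and edgeR called both higher once the replicate number was taken into account, beside 1.97% of all tested genes; the call of Satb1 was lost without pair 1 or pair 2. Of the factors of effector T cells, edgeR called 5 of 11 lower (1.39% of all tested genes) and 0 higher (0.100%), and 2 or 3 were lower with any 1 library but control replicate 3 left out. That list was chosen with earlier results of these data known.

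The counts summed to between 21419772 and 27490253 per control library and between 19087757 and 23794028 per KO library. Levels are CPM, counts scaled to the library's total over tested genes and to its TMM factor. Tfam (ENSMUSG00000003923) stood at 25.9, 30.6 and 42.4 CPM in the controls numbered 1 to 3 and at 15.6, 14.4 and 16.5 CPM in the KO libraries, a log2 fold change of -1.09 ± 0.17 (SE, edgeR quasi-likelihood test, adjusted p = 0.020). No library went against its label, although Tfam was no longer called when control replicate 2 was left out (adjusted p = 0.0551) or when it was KO replicate 1 (0.109), 2 (0.0866) or 3 (0.0844). Exons outside the deleted part keep giving reads, so this level is not that of intact mRNA. The 7 markers of the labelled cell type (Foxp3, Il2ra, Ctla4, Ikzf2, Tnfrsf18, Cd3e and Cd4) were all present, summing to between 2587 and 2868 CPM in control and between 2540 and 2771 CPM in KO.

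Other cells were present too. The 11 macrophage markers, Vcam1 the highest, summed to 420 and 500.0 CPM in control replicates 1 and 3 and to 555 and 489 CPM in KO replicates 1 and 3, but to 920 CPM in control replicate 2 and 1327 CPM in KO replicate 2. All 11 had a higher mean in KO, edgeR called 0, and it called 4 higher with the replicate number as a block. The 8 B cell markers summed to between 550.3 and 578 CPM in control and between 399 and 433 CPM in KO, nearly all of it Ighm, while Ms4a1 and Pax5 stayed below 1 CPM in both means. Ighm was the 1 of these markers that was called, lower in KO by a log2 fold change of -0.47 (adjusted p = 0.0134). Cd40lg and Dpp4, genes of conventional CD4 T cells, summed to between 144 and 150.2 CPM in control and between 125 and 137 CPM in KO. Replicates were not copies of each other: the chi-square of their counts, divided by its degrees of freedom, was between 8.75 and 27.4 for the pairs within a group.

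**Figure D1:**
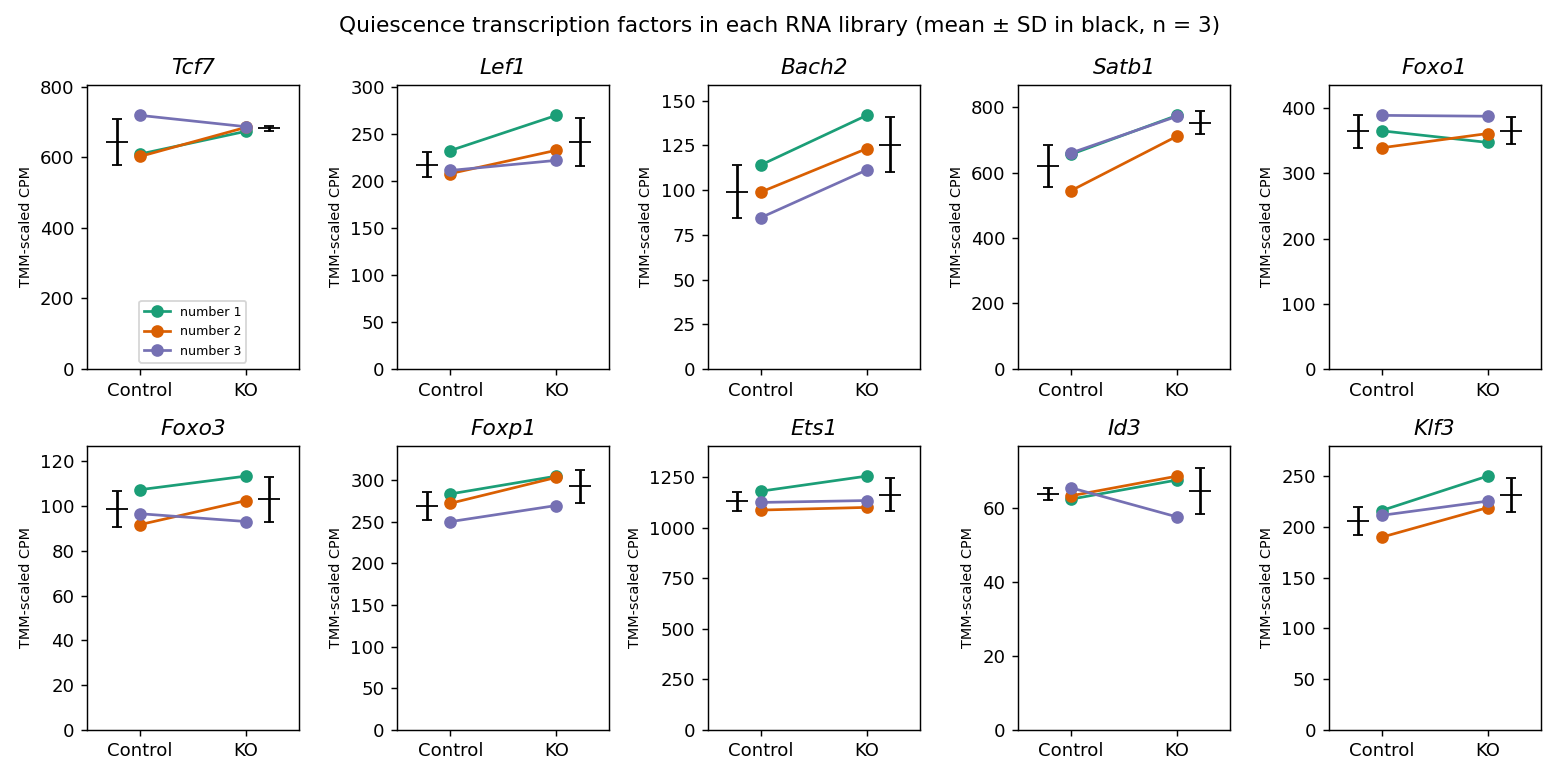
Level of each factor (vertical axis, TMM-scaled CPM) in control and KO libraries (horizontal axis), with lines joining libraries of the same replicate number and black marks giving the mean and SD of 3 libraries. For Bach2 the 3 lines run parallel, from 114, 98.9 and 84.6 CPM to 142, 123 and 111 CPM, whereas for Foxo1 they cross.

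BACH2 is a bZIP repressor that keeps T cells from taking on effector fates. Bach2 (ENSMUSG00000040270) had 114, 98.9 and 84.6 CPM in the controls numbered 1 to 3 and 142, 123 and 111 CPM in the KO libraries in the same order. The libraries kept one order in both groups, number 1 highest and number 3 lowest, and the groups overlapped because control replicate 1 lay above KO replicate 3. Its log2 fold change was 0.34 ± 0.12 (SE), or 1.27-fold with a 95% interval of 1.04 to 1.54, and was not called by edgeR (adjusted p = 0.302). Within same-numbered libraries the difference was 0.31, 0.32 and 0.39 on the log2 scale, an SD of 0.046 over the 3 pairs. With the replicate number as a block edgeR called Bach2 higher (0.34 ± 0.05, adjusted p = 0.00331), as did DESeq2 with the same block (adjusted p = 0.000761). The call did not depend on 1 pair, at adjusted p-values of 0.0171, 0.00844 and 0.0165 without pairs 1, 2 and 3. Bach2 is also known from B cells, whose receptor chains averaged 2.51 CPM in control and 2.77 CPM in KO (Cd79a) and 13.8 and 10.03 CPM (Cd79b), beside the lower Ighm in KO. The part of B cell or macrophage RNA in the Bach2 level was not tested, and without pair 2, which held the most macrophage RNA, the blocked value was 0.35.

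SATB1 folds chromatin into loops around T cell genes, and in Treg it is known to be held down by FOXP3. Satb1 (ENSMUSG00000023927) stood at 656, 545 and 660.2 CPM in the controls numbered 1 to 3 and at 775, 711.5 and 772 CPM in the KO libraries. Every KO library lay above every control library, and the lowest of each group was the one numbered 2, which also held the most macrophage RNA; the part of that RNA in the level was not tested. The fitted change was 1.21-fold (95% interval 1.05 to 1.40), a log2 fold change of 0.28 ± 0.09 that edgeR did not call (adjusted p = 0.244). Without control replicate 2 it was 0.19 (adjusted p = 0.565). With the block Satb1 was called higher by edgeR (0.28 ± 0.07, adjusted p = 0.0258), but not once pair 1 (adjusted p = 0.0782) or pair 2 (0.158) was left out. DESeq2 called it with the block (adjusted p = 0.000865) and, narrowly, without it (0.0474). For Foxp3 itself the log2 fold change was 0.14 ± 0.10 (adjusted p = 0.613).

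Tcf7 (ENSMUSG00000000782), which encodes TCF-1, had 609.8, 603 and 719.6 CPM in control and 674, 686 and 687 CPM in KO replicates 1 to 3. The KO libraries were close together, and control replicate 3 lay above all of them. Its 1.06-fold difference had a 95% interval of 0.930 to 1.21 (log2 fold change 0.08 ± 0.08, adjusted p = 0.725). Within pairs it was higher in numbers 1 and 2 (0.15 and 0.19) and lower in number 3 (-0.07). Lef1 (ENSMUSG00000027985), its close relative, had 233, 208 and 211 CPM in control and 270.1, 233 and 222 CPM in KO. KO replicate 1 stood above the other 5 libraries, and the 2 groups overlapped. The log2 fold change of Lef1 was 0.15 ± 0.09 (1.11-fold, 95% interval 0.968 to 1.28, adjusted p = 0.515) and was higher in KO in each same-numbered pair, by 0.22, 0.16 and 0.07. Without KO replicate 1 the value was 0.07, and with the block Lef1 was not called (adjusted p = 0.151).

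FOXO1 and FOXO3 are forkhead proteins that drive genes of lymphoid homing and survival. Foxo1 (ENSMUSG00000044167) had 365, 339 and 389 CPM in control and 347, 361 and 388 CPM in KO, a range that was nearly the same in both groups. The log2 fold change of 0.003 ± 0.076 had a 95% interval of 0.889-fold to 1.13-fold (adjusted p = 0.992). Foxo3 (ENSMUSG00000048756) had 107, 91.7 and 96.6 CPM in control and 113, 102 and 93.1 CPM in KO, again with overlap. Its log2 fold change was 0.06 ± 0.09 (adjusted p = 0.819) and was -0.005 without KO replicate 1. FOXP1, a further forkhead factor known to keep naive T cells quiescent, was measured at 283, 272 and 250.2 CPM in control and at 305, 303 and 269.6 CPM in KO (Foxp1, ENSMUSG00000030067). Number 3 was the lowest in both groups, and the KO library was the higher one in each pair, by 0.11, 0.16 and 0.11. The log2 fold change was 0.12 ± 0.08 (adjusted p = 0.551), and 0.12 ± 0.06 with the block (adjusted p = 0.225).

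Klf3 (ENSMUSG00000029178) encodes a Krüppel-like repressor that binds CACCC boxes. It had 216, 189.9 and 212 CPM in control and 250.3, 219 and 226 CPM in KO. The groups did not overlap, though KO replicate 2 lay only just above control replicate 1. The change of 1.13-fold (95% interval 0.994 to 1.27) was not called without the block (log2 fold change 0.17 ± 0.08, adjusted p = 0.42) or with it (0.17 ± 0.06, adjusted p = 0.104). Ets1 (ENSMUSG00000032035), an ETS-family activator of T cell genes, had 1182, 1088 and 1126 CPM in control and 1256.5, 1101 and 1135 CPM in KO. Its log2 fold change was 0.04 ± 0.08 (95% interval 0.911-fold to 1.16-fold, adjusted p = 0.868). ID3, which has no DNA-binding region and blocks E proteins by pairing with them, came from a gene at 62.3, 63.2 and 65.4 CPM in control and 67.5, 68.6 and 57.5 CPM in KO (Id3, ENSMUSG00000007872). KO replicates 1 and 2 lay above and KO replicate 3 below all 3 controls, and the log2 fold change was 0.02 ± 0.08 (adjusted p = 0.95).

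Promoter sequence of members is shown for Satb1, which stood apart between the groups, and for Lef1 and Klf3. Lef1 and Klf3 were higher in each pair, and their windows hold a CACCC-type match, the kind of box that KLF3 itself binds. The match was thus part of the choice. Foxp1 met the same terms and is not shown. Bach2 is not shown because its only window starts inside the gene. Each sequence shown is the 250 bases before the most upstream start of the gene in RefSeq (GRCm38.p6), read 5′ to 3′ on the gene's strand. The windows are chr17:51833291-51833540 (minus) for Satb1, chr3:131110047-131110296 (plus) for Lef1 and chr5:64803271-64803520 (plus) for Klf3. Capitals mark CCCCACCC or its reverse complement.
Satb1: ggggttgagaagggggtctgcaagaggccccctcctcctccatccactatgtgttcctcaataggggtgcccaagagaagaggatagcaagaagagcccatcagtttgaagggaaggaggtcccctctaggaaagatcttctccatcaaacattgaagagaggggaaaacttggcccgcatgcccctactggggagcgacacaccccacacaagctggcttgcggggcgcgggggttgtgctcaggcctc
Lef1: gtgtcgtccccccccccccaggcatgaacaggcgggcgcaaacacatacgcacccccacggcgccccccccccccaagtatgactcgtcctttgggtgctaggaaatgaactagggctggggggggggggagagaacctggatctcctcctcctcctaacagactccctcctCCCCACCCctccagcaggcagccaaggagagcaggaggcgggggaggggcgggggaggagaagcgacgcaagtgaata
Klf3: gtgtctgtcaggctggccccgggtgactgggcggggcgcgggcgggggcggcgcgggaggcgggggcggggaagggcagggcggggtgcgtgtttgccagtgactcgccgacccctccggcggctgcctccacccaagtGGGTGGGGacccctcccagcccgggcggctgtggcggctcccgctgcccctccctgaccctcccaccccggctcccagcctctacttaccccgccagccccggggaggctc

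RefSeq windows were found for 9 of the 10 factors, all but Ets1, 19 windows in all, some of them overlapping. Some precede start sites that lie inside the gene, the only Bach2 window among them. The main promoter was therefore not searched for every factor. The letters CCCCACCC or GGGTGGGG stood in 7 of the 19 windows, those of Tcf7, Lef1, Satb1, Foxp1 and Klf3, and in 9.05% of all 32851 windows of the same length. Of these 7, 3 are Lef1 windows, and the first 2 of them overlap on 1 match. Counted from the most upstream start, the Tcf7 match was in window 2 and the Satb1 match in window 4, not in the Satb1 window shown. Both precede start sites downstream of the most upstream one. The ETS letters CCGGAAGT stood in 1 of the 19, the same window 2 of Tcf7, and in 2.88% of all windows. CTTTGAT of TCF and LEF (3.21% of all windows), GTAAACA of FOXO (3.17%) and TGANTCA of AP-1 and BACH proteins (6.75%), each searched on both strands, stood in 0 of the 19. The matches are a description of these letters and no measure of binding.

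**Figure D2:**
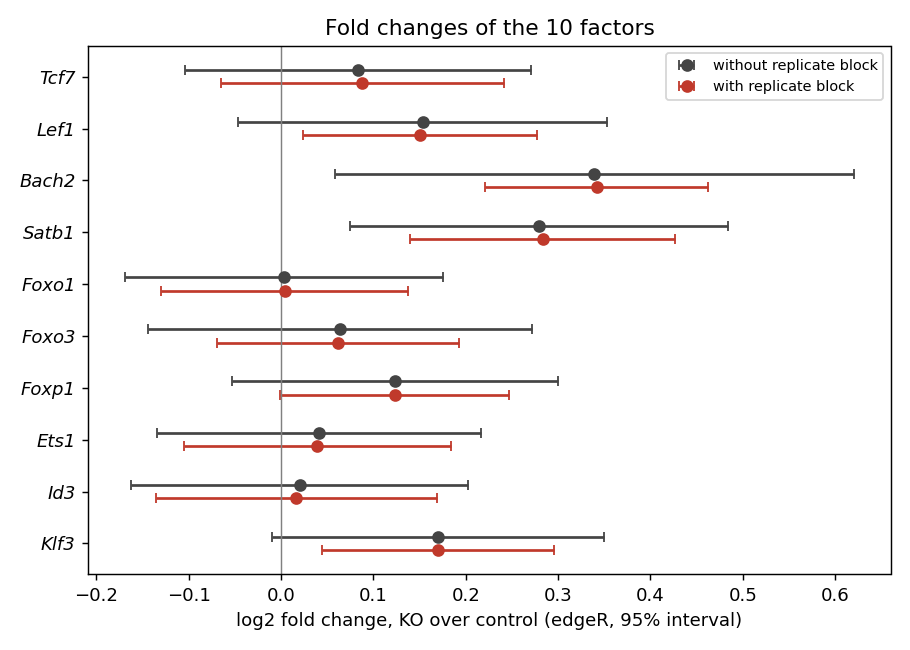
Log2 fold change of KO over control (horizontal axis) for each factor (vertical axis), as points with 95% intervals from edgeR, in grey without and in red with the replicate number as a block. Bach2 and Satb1 stand at 0.34 and 0.28, and their intervals lie above 0 in both fits, before any adjustment for the number of genes.

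Among the 10 factors, 0 were called higher and 0 lower by edgeR, against 0.100% of all tested genes called higher and 1.39% called lower. Bach2 and Satb1 had an unadjusted p under 0.05, 2 of 10 beside 12.6% of all tested genes. With the replicate block 4 of 10 had one, these and Lef1 and Klf3, beside 22.6%. Limma-voom called 0 of the 10, against 0.0250% of tested genes higher and 1.13% lower, and DESeq2 called Satb1, against 0.647% higher and 2.25% lower. With the block, edgeR and DESeq2 each called Bach2 and Satb1 higher and none lower, where edgeR called 1.97% of tested genes higher and 4.39% lower and DESeq2 1.17% and 2.55%. In 6 of the 10, namely Lef1, Bach2, Satb1, Foxp1, Ets1 and Klf3, the KO library was higher in all 3 same-numbered pairs, a pattern seen in 21.6% of tested genes, and in 0 it was lower in all 3 (23.7%). Satb1 and Klf3 had groups that did not overlap, 2 of 10 beside 8.63% of tested genes with KO higher and 10.4% with KO lower. The median log2 fold change was 0.10 over the 10 and -0.005 over all tested genes, of which 48.8% lay above 0. The intervals limit what was missed: for all 10 the 95% interval lay within 2-fold in either direction, and for 9 of them, all but Bach2, within 1.5-fold. In bulk RNA, a larger share of resting cells and more RNA of a gene per cell cannot be told apart.

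Some libraries were often the extreme ones of their group, although the factors did not all follow the same course. Control replicate 2 was the lowest control for 7 of the 10 and the highest for 0, and KO replicate 1 was the highest KO library for 7. The same shares over all tested genes are not given here. Control replicate 2 also held the most macrophage RNA of the controls, and the part of that RNA in these ranks was not tested. The levels of the 10 together came to 3829, 3499 and 3814 CPM in control and 4201, 3909 and 3962 CPM in KO, a sum in which long and abundant transcripts weigh most. The 3 KO sums lay above the 3 control sums, KO replicate 2 only narrowly above control replicate 1. The summed PI3K and AKT genes described below separated the same way (2404 to 2621 CPM in control, 2685 to 2758 CPM in KO). Sums of the effector factors separated the other way, and those of the other lists overlapped. Leaving out both libraries numbered 2 gave 0 called factors in edgeR without the block, with Bach2 at 0.35 (adjusted p = 0.666) and Satb1 at 0.23 (0.610). With the block, the same 4 libraries gave the call of Bach2 described above and none for Satb1.

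Some other genes followed nearly the same course over the 6 libraries. Likeness was measured as the root-mean-square distance between centred log2 CPM profiles, over 9051 named genes that averaged 5 CPM or more, and is given as a description. Nearest to Bach2 were Stx1a, a syntaxin of vesicle fusion (distance 0.033), Klf7, another Krüppel-like factor (0.049), and Hmbox1, a homeobox protein (0.060), against a median distance of 0.26. These 3 genes had log2 fold changes of 0.38, 0.37 and 0.33. Nearest to Satb1 were Ppcdc, an enzyme of coenzyme A synthesis (0.031), Dvl1, a Dishevelled protein of Wnt signalling (0.036), and the nuclear receptor Nr2c1 (0.041), with a median of 0.200. For Lef1 they were the deacetylase Sirt6 (0.0073), Gfod2 (0.015) and the nucleoside transporter Slc29a3 (0.029). For Tcf7 they were the lipid kinase Pip4k2a (0.024), Tada2b (0.025) and Trp53, which encodes p53 (0.025). None of the 12 was called by edgeR without the block (adjusted p between 0.231 and 0.911). With the block edgeR called 5 of the 12 higher. These were Stx1a (adjusted p = 0.00673), Klf7 (0.0229) and Hmbox1 (0.0202) beside Bach2, and Ppcdc (0.011) and Dvl1 (0.0346) beside Satb1. The 12 were chosen for likeness over the same 6 libraries. Their fold changes and calls therefore largely follow from that choice and are no separate evidence for the factors.

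Effector T cell factors, which BACH2 and TCF-1 are known to oppose, were the only one of the 8 pathway lists in which edgeR called genes without the block. Of 11 tested, 5 were lower, 0 higher and 6 did not pass, with a median log2 fold change of -0.71. Tbx21, which encodes T-bet of type 1 responses, fell 3.99-fold (edgeR adjusted p = 0.00798): its level was 6.02 ± 1.42 CPM in control and 1.49 ± 0.314 CPM in KO (SD, n = 3 each). Maf, a factor that drives Il10, fell 2.28-fold (adjusted p = 0.00544), with 89.9 ± 13.7 CPM in control and 39.5 ± 4.60 CPM in KO. Nfil3, a bZIP repressor, fell 2.18-fold (adjusted p = 0.020) and Batf, an AP-1 partner that opens effector genes, 1.53-fold (adjusted p = 0.0152). Prdm1, which encodes BLIMP-1 and is a gene that BACH2 is known to repress, was the remaining one, at a log2 fold change of -0.93 ± 0.16 (adjusted p = 0.0275). Tbx21 and Maf kept their calls with any 1 of the 6 libraries left out. With 1 library left out, 2 were lower when it was control replicate 2 or KO replicate 1 or 3, 3 when it was control replicate 1 or KO replicate 2, and 6 when it was control replicate 3. With the block edgeR called 9 of 11 lower, all but Gata3 and Zeb2, beside 4.39% of all tested genes. DESeq2 with the block called 8 lower, beside 2.55%.

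Close relatives of the 10 had 0 calls by edgeR, DESeq2 or limma-voom without the block. Of 15 genes 12 were tested, with a median of 0.05, and 0 had an unadjusted p under 0.05 in edgeR (12.6% of all tested genes). Klf2, a factor of lymphoid recirculation, varied widely in control, at 882, 442 and 1013 CPM in replicates 1 to 3 (779 ± 299 CPM). Its level was 765 ± 74.3 CPM in KO libraries (log2 fold change -0.03 ± 0.26). Within pairs Klf2 was lower in numbers 1 and 3 (-0.32 and -0.25) and higher in number 2 (0.74). Without control replicate 2 its value was -0.31 (edgeR adjusted p = 0.457). Klf6 had a log2 fold change of -0.10 ± 0.26. The paralogs Tcf7l1, Bach1, Foxo4, Foxp4 and Ets2 lay between 0.03 and 0.14. Others were less certain, with Tcf7l2 at 0.18 ± 0.46, Id1 at 0.71 ± 0.59, Klf4 at -0.30 ± 0.56 and Klf13 at -0.08 ± 0.19. Id2, the ID protein of effector cells, had a value of -0.55 ± 0.32 and was called lower by edgeR with the block (adjusted p = 0.00376). The E proteins that ID3 binds, Tcf3 and Tcf12, had values of 0.01 ± 0.07 and -0.07 ± 0.06.

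Among partners and pathway genes of the members, edgeR made 0 calls without the block. Of the 15 cofactors of TCF-1 and LEF1, 0 were called by edgeR, DESeq2 or limma-voom, and the median was 0.06. In edgeR 2 of the 15 had an unadjusted p under 0.05, beside 12.6% of all tested genes. Tle5 (listed as Aes), a Groucho-family protein, had a value of -0.02 ± 0.08 and the co-repressor Ctbp1 0.00 ± 0.06. Axin2, a classical target of TCF and beta-catenin, had a value of -0.11 ± 0.11. Of 14 PI3K and AKT genes upstream of FOXO proteins, edgeR and limma-voom called 0. In edgeR 2 of the 14 had an unadjusted p under 0.05, beside the same 12.6%. DESeq2 called 2 higher, Pik3cd and Pik3ip1, beside 0.647% of tested genes. Pik3cd, the PI3K catalytic chain of lymphocytes, had a value of 0.19 ± 0.07 (edgeR adjusted p = 0.274, or 0.108 with the block, and DESeq2 adjusted p = 0.037) and the lipid phosphatase Inpp5d 0.03 ± 0.07. Pik3ip1, an inhibitor of PI3K that FOXO proteins induce, had 96.4 ± 16.5 CPM in control against 137 ± 9.39 CPM in KO libraries (0.51 ± 0.12, edgeR adjusted p = 0.110). It was called higher by edgeR with the block (adjusted p = 0.00148) and by DESeq2 without it (0.002).

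Of 21 known targets of FOXO1, FOXO3 or KLF2, edgeR and limma-voom called 0. In edgeR 4 of the 21 had an unadjusted p under 0.05, beside 12.6% of all tested genes. DESeq2 called 1 higher, Pik3ip1 (0.647% of tested genes), and the median was 0.04. The chemokine receptor Ccr7 had a value of 0.14 ± 0.06, the IL-7 receptor chain Il7r -0.01 ± 0.13 and the egress receptor S1pr1 0.06 ± 0.09. Txnip, an inhibitor of glucose uptake, had 970.4 ± 98.9 CPM in control against 1004 ± 126 CPM in KO. With the block edgeR called Pik3ip1 and Bcl2l11, which encodes the death protein BIM, higher and Ctla4 lower, whereas DESeq2 called Pik3ip1 alone. Bcl2l11 had an edgeR adjusted p of 0.0421 with the block, 0.0724 without pair 1 and 0.201 without pair 3. Ctla4 had 0.0432 with the block and was not called by that fit with any 1 pair left out. The 20 further quiescence genes had a median of -0.004 and 0 calls by edgeR, DESeq2 or limma-voom. In edgeR 2 of the 20 had an unadjusted p under 0.05, beside the same 12.6%. The RNA-decay proteins Zfp36 and Zfp36l2 stood at -0.12 ± 0.18 and -0.03 ± 0.22. With the block Rbl2, a retinoblastoma-family protein of resting cells, was called lower by edgeR (-0.24 ± 0.06, adjusted p = 0.0344) but not by DESeq2 (0.0562), nor by edgeR with any 1 pair left out (adjusted p between 0.078 and 0.198).

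Proliferation genes had a median of -0.88 over 12 genes, all 12 with a fitted value below 0. Without the block 0 were called by edgeR, DESeq2 or limma-voom. In edgeR 4 of the 12 had an unadjusted p under 0.05, beside 12.6% of all tested genes. Their sum ranged from 308 to 578 CPM in control and from 251 to 377 CPM in KO, so the groups overlapped. Mki67, which encodes Ki-67 of cycling cells, had 90.0 ± 54.7 CPM in control against 46.1 ± 19.3 CPM in KO libraries (log2 fold change -0.96 ± 0.47, adjusted p = 0.444), while the replication genes Mcm5 and Pcna stood at -0.19 ± 0.14 and -0.08 ± 0.10. With the block edgeR and DESeq2 each called 7 of the 12 lower, Mki67 and Top2a among them. Over all tested genes these fits called 4.39% and 2.55% lower. The part of cycling cells in the levels of the 10 factors was not tested.

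**Figure D3:**
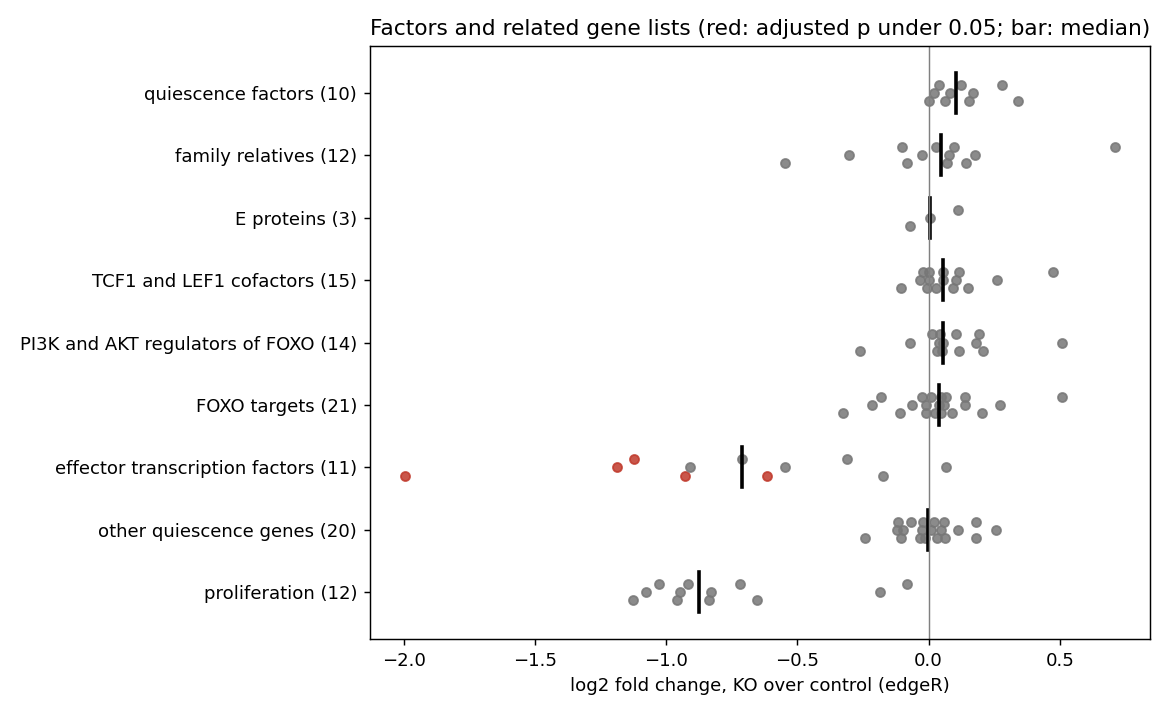
Log2 fold change of KO over control (horizontal axis) for every tested gene of each list (vertical axis, number of tested genes in brackets); red points passed an adjusted p of 0.05 in edgeR without the block and black bars give medians. The 10 quiescence factors lie between 0.00 and 0.34, and the 5 red points are all effector factors.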

How the data were processed

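Read counts per gene (HTSeq, per the labels) were deposited by the authors as 1 table with a column per RNA library. Per the submitters' processing notes, mm10 and mm9 were used with HISAT2, HTSeq, Cufflinks, DESeq2, Bowtie2, bedtools and SAMtools; which did what is not given, nor are versions, annotation or strand setting, so overlapping antisense genes cannot be told apart. The 4 ATAC-seq libraries were not analysed here. Symbols matched 22522 of 22553 IDs.

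The test was edgeR 4.0.16 (R 4.3.3; filterByExpr, minimum count 10 and total 15; TMM; quasi-likelihood F test; Benjamini-Hochberg over 11990 genes; call at adjusted p under 0.05). SE and 95% intervals come from the F statistic. Log2 CPM of single libraries used a prior count of 2. A count of 3 equals 0.11 to 0.157 CPM. Alternatives used limma 3.58.1 and DESeq2 1.42.0.

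Same-numbered libraries deviated together (correlation of deviations from group means 0.30, 0.58 and 0.54 for numbers 1 to 3), so the numbers were taken as pairs and blocked values are given where they change a call. The labels do not state a pairing.

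Members, lists and markers were chosen with earlier results of these data known. Named genes were the 10 members, Tfam, up to 4 called genes per list by adjusted p or else the 2 most abundant, and the 3 most alike for Tcf7, Lef1, Bach2 and Satb1. Further list genes, among them Prdm1, Id2, Axin2, Pik3ip1, Rbl2, Ccr7 and Mki67, were named after their values were seen.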

Additional observations from a re-analysis of the deposited data

How the results depend on the processing

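With the number as a block (replicate block), edgeR called 526 genes lower and 236 higher and DESeq2 300 and 138, and 2 of the 10 factors were higher by each (Bach2 and Satb1). Without it, edgeR called 167 lower and 12 higher, DESeq2 264 and 76 with 1 factor (Satb1), and limma-voom 136 and 3. With 1 library left out, between 26 (KO replicate 1 absent) and 166 genes were lower, between 0 and 10 higher, and 0 factors called. Without both libraries numbered 2 the numbers were 54 and 0. With the block and pair 1, 2 or 3 left out, chosen after seeing the data, 335, 496 and 309 genes were lower, 205, 208 and 66 higher, and 1, 1 and 2 factors higher.

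Only Foxo1, Foxo3, Ets1 and Id3 changed sign, and none was called. With 1 library left out their log2 fold changes ran from -0.046 to 0.053, -0.0046 to 0.14, -0.010 to 0.089 and -0.015 to 0.096. Without both libraries numbered 2, Foxo1 was at -0.038 and Id3 at -0.030. With the block, Id3 was at -0.022 without pair 1 and -0.033 without pair 2, and Foxo1 at -0.039 without pair 2. The causes were not tested. The other 6 factors stayed above 0 in all 17 alternatives, and the median of the 10 lay between 0.076 and 0.16. RLE factors or another prior count moved the pair differences by less than their SD. Fewer libraries leave fewer degrees of freedom.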
